A study of Mus musculus with 9 samples.

Results

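CHD7 binding was examined at the MEIS and PBX genes and their relatives of the TALE homeobox class, which were Meis1, Meis2, Meis3, Pbx2, Pbx3, Pbx4, Pknox1, Pknox2 and Tgif1. A peak was assigned to a gene when its midpoint fell in the regulatory domain of that gene. The domain ran from 5 kb upstream to 1 kb downstream of the transcription start site (TSS), called the basal domain, and was extended on both sides to the basal domain of the next protein-coding gene or to 1 Mb. By this rule 11 of the 3761 CHD7 peaks lay in the domains of 7 of the 9 genes, out of 21911 protein-coding genes that were examined in the same way.

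The peaks came from CUT&RUN, in which an antibody directs a nuclease to a chromatin protein and the released DNA is sequenced. The cells were wild-type (WT) cardiac progenitor (CP) cells, obtained by differentiating mouse embryonic stem cells in culture and collected at day 5. There were 3 libraries made with anti-CHD7, 3 made with IgG as negative control and 3 input libraries without antibody, and the 3 of each group were biological replicates. The deposited list gives 1 set of positions for the 3 anti-CHD7 libraries together, without read counts, heights or P-values, so library depth, replicate spread and peak strength are unknown and none of the values has an error from replicates. Expression was not measured in these libraries, and the identity of the cells was therefore not checked here against marker genes. The authors compared expression during their own differentiation with published stages and reported a matching trajectory. The intervals given for shares are Wilson 95% intervals and cover counting error only.

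TALE proteins carry a homeodomain with an extra loop of amino acids between its first helices. MEIS and PREP proteins bind DNA as partners of PBX proteins, and PBX proteins also pair with HOX proteins, so that these factors often occupy composite sites. Several of them act in the heart: MEIS and PBX factors are known for roles in the outflow tract and in the progenitors of the second heart field. CHD7 is a chromatin remodeller that uses ATP to move nucleosomes and does not itself recognise a DNA sequence.

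To show the sequence under the peaks, the central 200 bp of the peak nearest to the TSS of each gene are given, on the plus strand of GRCm38 (mm10) and 5′ to 3′. Capitals mark matches, on either strand, to any of 7 consensus sequences. The letters searched were TGACAG (the core of MEIS, PREP and TGIF proteins), TGATTNAT (PBX with HOX), TGATTGAC (PBX with MEIS or PREP), AGATAA (the core of GATA factors), CATAAA (caudal and posterior HOX), GGGCGG (the GC box of SP and KLF proteins) and AGGTGT (part of a T-box site). The TGATTNAT and TGATTGAC patterns differ at the last letter, so that the same letters cannot match both, whereas a TGACAG can overlap the end of a TGATTGAC. For Pbx4 the 192 bp of the peak that lie upstream of the TSS are shown, and for Meis3 none are shown, because its peak lies in a UTR. The second peak of Meis1 and the more distant peak of Tgif1 were added after their matches had been seen.
Meis1 peak2283, chr11:19020675-19020874: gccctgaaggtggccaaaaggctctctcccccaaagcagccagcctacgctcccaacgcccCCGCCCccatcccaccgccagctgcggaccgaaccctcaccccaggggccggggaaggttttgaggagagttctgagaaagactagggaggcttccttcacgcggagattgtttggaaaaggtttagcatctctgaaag
Meis1 peak2284, chr11:19023039-19023238: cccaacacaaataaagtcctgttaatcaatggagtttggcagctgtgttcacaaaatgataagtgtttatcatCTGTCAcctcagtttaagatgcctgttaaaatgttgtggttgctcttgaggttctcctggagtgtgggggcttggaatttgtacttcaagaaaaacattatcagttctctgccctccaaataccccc
Meis2 peak418, chr2:116010773-116010972: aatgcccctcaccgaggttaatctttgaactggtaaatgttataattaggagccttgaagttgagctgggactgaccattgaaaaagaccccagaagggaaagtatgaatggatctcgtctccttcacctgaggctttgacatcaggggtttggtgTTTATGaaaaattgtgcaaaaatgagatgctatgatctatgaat
Pbx3 peak309, chr2:33966444-33966643: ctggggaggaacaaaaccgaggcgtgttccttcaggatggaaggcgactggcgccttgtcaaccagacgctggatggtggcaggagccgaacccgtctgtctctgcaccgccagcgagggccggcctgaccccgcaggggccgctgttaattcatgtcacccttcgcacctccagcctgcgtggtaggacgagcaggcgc
Pbx4 peak1693, chr8:69832299-69832490: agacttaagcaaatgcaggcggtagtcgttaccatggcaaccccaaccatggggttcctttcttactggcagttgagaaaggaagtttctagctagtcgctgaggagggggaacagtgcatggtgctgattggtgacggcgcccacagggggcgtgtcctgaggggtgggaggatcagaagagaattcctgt
Pknox1 peak3414, chr17:31539748-31539947: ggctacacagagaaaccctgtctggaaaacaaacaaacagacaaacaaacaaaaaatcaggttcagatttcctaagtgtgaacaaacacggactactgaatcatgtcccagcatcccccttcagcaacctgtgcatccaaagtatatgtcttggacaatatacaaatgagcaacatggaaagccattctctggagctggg
Tgif1 peak3472, chr17:70633278-70633477: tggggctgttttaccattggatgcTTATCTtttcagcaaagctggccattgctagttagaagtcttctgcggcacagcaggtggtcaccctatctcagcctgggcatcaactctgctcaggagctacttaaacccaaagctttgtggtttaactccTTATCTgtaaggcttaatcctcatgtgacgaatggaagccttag
Tgif1 peak3473, chr17:70747849-70748048: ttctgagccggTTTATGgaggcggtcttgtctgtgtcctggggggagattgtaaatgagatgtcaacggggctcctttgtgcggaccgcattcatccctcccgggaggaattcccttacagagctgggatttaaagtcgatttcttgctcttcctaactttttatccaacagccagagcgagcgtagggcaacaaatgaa

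The peak nearest to Meis1 held a GC box near its centre, and its neighbour held the only TGACAG in the central 200 bp of the 11 peaks. The more distant Tgif1 peak held AGATAA at a pair of central positions. The nearest peaks of Meis2 and Tgif1 each held CATAAA, and the sequences of Pbx3, Pbx4 and Pknox1 held none of the 7 patterns.

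The MEIS genes carried most of the peaks, with 6 of the 11, and Meis1 carried the most of the 9, with 3. The domains of Meis1, Meis2 and Meis3, of 1900473, 1290975 and 90167 bp, also made up most of the 4.81 Mb searched. The part of domain length in this count was not tested. Meis1 encodes a MEIS cofactor that is needed for normal heart and blood development. It lies on the minus strand of chromosome 11 (chr11:18879817-19018985) and its TSS is at 19018969. The first peak, peak2283 (chr11:19020274-19021275), was 1002 bp wide and centred 1806 bp upstream of this TSS. The second, peak2284 (chr11:19022702-19023575), was 874 bp wide and centred 4170 bp upstream. The centres of this pair were 2364 bp apart, and both peaks were intergenic and in no other gene's domain.

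The pair upstream of Meis1 differed in base composition. The nearer peak had a GC content of 54.5% and an observed to expected CpG ratio of 0.623, against a median ratio of 0.212 over all peaks, and 6.38% of peaks had a higher ratio. Its neighbour had a GC content of 41.8% and a CpG ratio of 0.135, and 76.9% of peaks had a higher ratio. The third peak of Meis1, peak2285 (chr11:19349759-19350247), was 489 bp wide, intergenic and 331034 bp upstream. It also fell in the domain of Spred2, whose product dampens RAS-MAPK signalling, but the TSS of Spred2 was farther away, at 574439 bp. None of the 7 patterns was found in this peak.

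A pair of peaks in 1 basal domain was rare in the list. Among all genes 0.0319% had at least 2 peaks there, which is 7 genes, and Meis1 was the only one of the 9 TALE genes with such a pair. The other genes were Cog2, Gbf1, Lpar6, Phf20, Pitx3 and Sema3b, and Gbf1 and Pitx3 shared a single pair. Counting Meis1 itself, 268 genes had as many peaks as Meis1. Among the others only Cog2, which encodes a subunit of a Golgi tethering complex, also had 2 of its 3 peaks in the basal domain. These 2 peaks were 2285 and 140 bp upstream of the Cog2 TSS. The domain of Meis1 is 1900473 bp long, and that of Cog2 is 129770 bp long.

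Meis2, a second MEIS gene that is required for the development of cardiac neural crest, had 2 peaks. It lies on the minus strand of chromosome 2 (chr2:115863064-116065839). Its nearer peak, peak418 (chr2:116010269-116011476), was 1208 bp wide and lay 54174 bp downstream of the TSS, in intron 7 of 11 of Meis2 itself. Measured from the closest TSS of any Meis2 transcript the distance was 31173 bp. The other, peak417 (chr2:115719334-115719884), was 551 bp wide and 345438 bp downstream, past the end of Meis2 and in the last of the 10 introns of BC052040. Both peaks also fell in the domain of BC052040. The GC content was 40.9% in the intronic peak of Meis2 and 44.6% in the other, and neither was rich in CpG, with ratios of 0.179 and 0.182.

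Meis3, the third MEIS gene, had 1 peak. Meis3 lies on the plus strand of chromosome 7 (chr7:16175090-16186504). The peak, peak1415 (chr7:16159969-16160818), was 850 bp wide and 15036 bp upstream of the Meis3 TSS. All 850 bp lay in the 3′ UTR of Slc8a2, which encodes a sodium-calcium exchanger, and the peak was also assigned to that gene, 30568 bp downstream of its TSS.

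The PBX genes had fewer peaks, in domains of 6000 bp for Pbx2, 509237 bp for Pbx3 and 63258 bp for Pbx4. Pbx4 encodes a PBX protein best known from the testis. Its only peak, peak1693 (chr8:69832299-69832924), was the one of the 11 that covered a TSS. It was 626 bp wide, and its centre lay 121 bp downstream of the Pbx4 TSS, in the 5′ UTR, and 12 bp upstream of the closest TSS of any Pbx4 transcript. The UTR took up 218 of the 626 bp. The peak had the highest GC content of the 11, at 62.5%, and the highest CpG ratio, at 0.701. It covered all 300 bp of the Pbx4 promoter entry in RefSeq (chr8:69832374-69832673). RefSeq promoter sequences were matched for 6 of the 9 genes, with 10 entries, and the other 9 entries were not overlapped by a peak. Over all 32851 entries 1.42% were overlapped.

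Pbx3, a PBX gene widely expressed in embryos, had a single peak at the far end of its domain. It was peak309 (chr2:33966144-33966944), 801 bp wide, intergenic and 405500 bp downstream of the Pbx3 TSS, beyond the end of the gene (chr2:34171457-34373142, minus strand). It was also assigned to Mvb12b, which encodes an ESCRT-I subunit, and lay closer to that gene, 78598 bp upstream of its TSS. The nearest TSS of any gene was that of the lincRNA Gm13404, at 11702 bp. With a CpG ratio of 0.685 it was the second most CpG-rich of the 11 peaks.

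Pbx2, which is expressed in most tissues, had no peak. Pbx2 lies on the plus strand of chromosome 17 (chr17:34591266-34597400) among closely spaced genes, and its domain was 6000 bp long, the basal domain alone. The nearest peaks were 66773 bp downstream and 510023 bp upstream of its TSS.

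The PREP proteins, encoded by Pknox1 and Pknox2, are PBX partners related to the MEIS proteins. Pknox1 (chr17:31564734-31607693, plus strand) had 1 intergenic peak, peak3414 (chr17:31539558-31540137), 580 bp wide and 24886 bp upstream. It was also assigned to Ndufv3, which encodes a subunit of mitochondrial complex I, and was nearer to that gene. Repeats masked in the reference took up 34.0% of this peak, the highest share of the 11. Pknox2 had no peak, although its domain of 369539 bp was longer than those of Pknox1, Pbx4 and Meis3. The nearest peaks lay 68845 bp upstream and 1167818 bp downstream of the Pknox2 TSS.

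TGIF proteins bind the same core as MEIS proteins and are known as repressors of TGF-beta and retinoic acid signalling. Tgif1 (chr17:70844205-70853546, minus strand) had 2 peaks, both downstream of the gene and both inside Dlgap1, which encodes a synaptic scaffold protein. The nearer, peak3473 (chr17:70747194-70748704), was 103258 bp from the Tgif1 TSS, in intron 4 of 9 of Dlgap1, and was the widest of the 11 at 1511 bp. Of all peaks 9.33% were wider. The other, peak3472 (chr17:70632933-70633822), was 890 bp wide and 217829 bp from the TSS, in intron 2 of Dlgap1. Both were also in the domain of Dlgap1. With all transcripts counted, the nearest protein-coding TSS of both was one of Dlgap1. With 1 TSS per gene the nearer peak was closer to Tgif1, as the Dlgap1 TSS was 225813 bp away.

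The map of peaks by distance from the TSS shows these layouts side by side. The pair close to Meis1 and the peak across the Pbx4 start were the only ones within 5 kb. For Meis2, Pbx3 and Tgif1 every peak lay more than 50 kb downstream of the TSS, and for Meis1, Meis3 and Pknox1 every peak lay upstream.

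**Figure D1:**
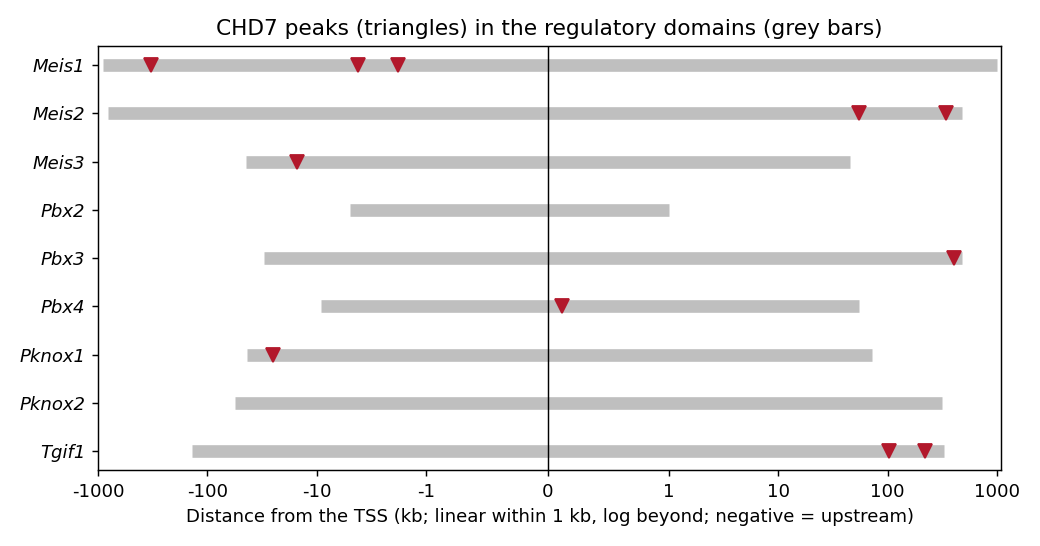
CHD7 peaks (red triangles) and regulatory domains (grey bars) of the 9 TALE genes, by distance from the TSS in kb, with negative values upstream; the axis is linear within 1 kb of the TSS and logarithmic beyond. Meis1 had 3 peaks, all upstream, at 1806, 4170 and 331034 bp, and Pbx2 and Pknox2 had none.

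Counts were then set beside those of all genes. At least 1 peak was found for 7 of the 9 TALE genes (77.8%) and for 22.7% of all genes. At least 2 peaks were found for Meis1, Meis2 and Tgif1 (33.3%) and for 5.88% of all genes. At least 3 were found for Meis1 alone (11.1%) and for 1.75% of all genes. A peak in the basal domain was found for Meis1 and Pbx4 (22.2%) and for 3.16% of all genes. These counts are descriptions of 9 genes, and no test was run on them.

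Domain length moved with the counts. The median domain was 369539 bp for the TALE genes and 90182 bp for all genes. The share of all genes with a peak was 4.58% for domains under 10 kb, 12.0% from 10 to 100 kb, 34.9% from 100 kb to 1 Mb and 40.7% at 1 Mb or more. Meis1 and Meis2 belong to the last class, with domains of 1900473 and 1290975 bp, and only 0.456% of genes had a longer domain than Meis1. Pbx3, Pknox1, Pknox2 and Tgif1 belong to the class from 100 kb to 1 Mb, Meis3 and Pbx4 to that from 10 to 100 kb, and Pbx2 to the shortest. Counted per length, the TALE domains held 2.29 peaks per Mb over 4.81 Mb, the domains of all genes 1.48 and the sequenced genome 1.42. Within the set the densities ran from 1.55 per Mb for Meis2 and 1.58 for Meis1 to 11.1 for Meis3 and 15.8 for Pbx4, leaving aside the genes without a peak. Over all genes the density fell with domain length, from 6.36 per Mb under 10 kb to 2.72, 1.72 and 0.553 in the longer classes. With so few peaks per gene, the order of the TALE genes with a peak was largely set by domain length. Meis1 and Meis2 lay above the 0.553 of their class. Pbx3 (1.96), Tgif1 (4.28) and Pknox1 (8.69) lay above the 1.72 of theirs, whereas Pknox2 had no peak. The class values include genes without a peak, so that few peaks are enough to lie above them. Meis3 and Pbx4 lay above the 2.72 of theirs, but each rests on 1 peak, and any gene of that class with a peak lies above it. The part of domain length in the difference from all genes was not tested.

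**Figure D2:**
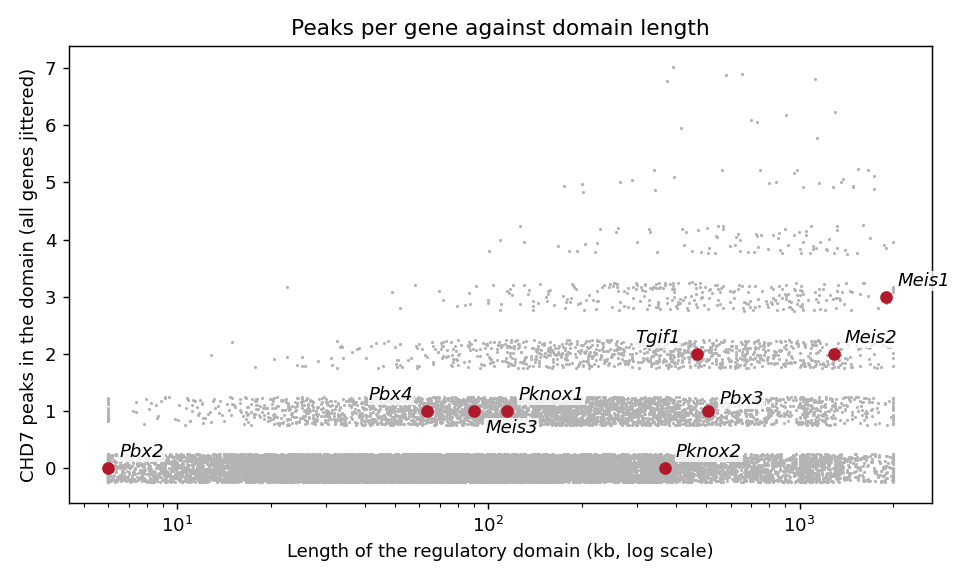
Number of CHD7 peaks in the regulatory domain of each gene against the length of the domain in kb on a log scale, for all 21911 genes (grey points, spread vertically at random so that they can be seen) and the 9 TALE genes (red). Meis1 and Meis2 have domains over 1 Mb with 3 and 2 peaks, whereas Pbx2 has the shortest domain possible and none.

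Most of the peaks were shared with a neighbouring gene. Of the 11, 8 (72.7%) were in the domain of another gene as well, against 81.3% of all peaks with 2 or more genes. The 3 that were not were the pair near Meis1 and the Pbx4 peak. With the TSSs of all transcripts counted, the TALE gene was the nearest protein-coding gene for 6 of the 11 peaks. These were the peaks of Meis1, Meis3 and Pbx4 and the intronic peak of Meis2. With 1 TSS per gene there were 7, the nearer peak of Tgif1 being added. The target gene of a shared peak cannot be told from position.

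In position the 11 peaks spread widely. Within 5 kb of any protein-coding TSS lay 3 (27.3%, interval 9.75 to 56.6) against 32.0% of all peaks, and over 50 kb away lay 5 (45.5%, interval 21.3 to 72.0) against 24.6%. Both intervals contain the value of all peaks. The 11 peaks were picked through gene domains, so distances to the TSS of the assigned gene are the closer comparison. By that measure 54.5% lay over 50 kb away, against 53.5% of all pairs of gene and peak. Within 5 kb lay 27.3% (interval 9.75 to 56.6), against 13.2%, a value inside this interval. These were the pair near Meis1 and the Pbx4 peak. Introns of protein-coding genes held 4 peaks (36.4% against 44.2%), intergenic sequence held 5 (45.5% against 46.8%) and exons held those of Meis3 and Pbx4 (18.2% against 8.96%). Another peak within 5 kb was found for the pair near Meis1 (18.2%, interval 5.14 to 47.7) and for 2.79% of all peaks, a value below this interval that rests on that single pair.

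The peaks were 489 to 1511 bp wide with a median of 850 bp, against a median of 703 bp over all peaks, and 7 of the 11 were wider than that median. The CpG ratio reached 0.6, a level usual for CpG islands, in the nearer peak of Meis1 and in the peaks of Pbx3 and Pbx4. Their share was 27.3% (interval 9.75 to 56.6), against 7.18% of all peaks, a value below this interval. It rests on 3 peaks and is 1 of many shares compared, and no test was run. The plot of width against CpG ratio shows that these 3 peaks differed in place: across the TSS for Pbx4, close upstream for Meis1 and 405500 bp away for Pbx3. The remaining 8 ran from 0.135 to 0.447, the highest being the wide peak near Tgif1.

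**Figure D3:**
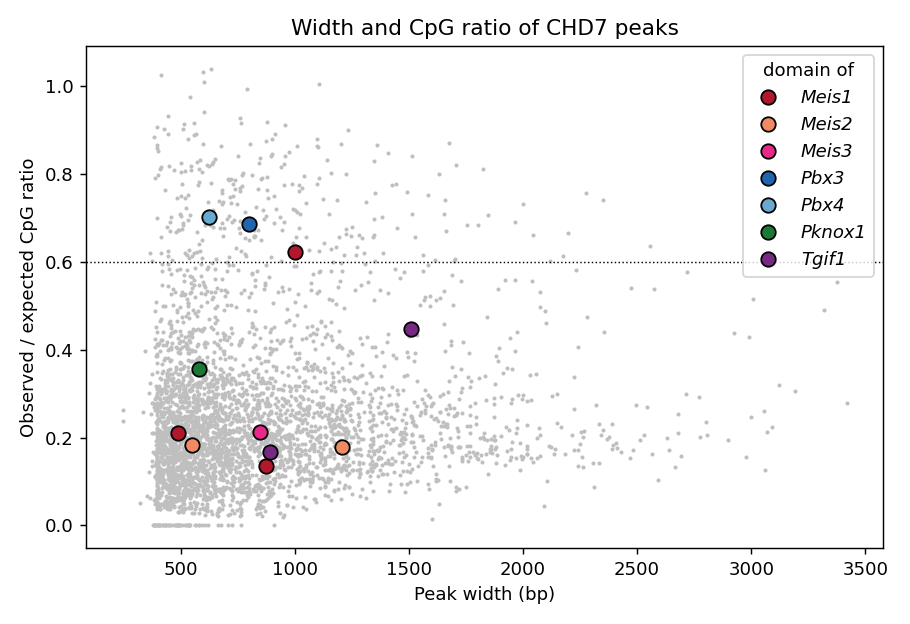
Width in bp and observed to expected CpG ratio of all 3761 CHD7 peaks (grey) and of the 11 peaks in TALE gene domains (coloured by gene); the dotted line marks a ratio of 0.6. The peaks above the line are those of Pbx4 (0.701), Pbx3 (0.685) and the nearer peak of Meis1 (0.623).

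The consensus matches were then counted, because TALE genes encode factors that bind several of these letters themselves. In the central 200 bp, TGACAG was found in 1 of 11 peaks (9.09%, interval 1.62 to 37.7), the second peak of Meis1, against 15.3% of all peaks. Over the whole peak it was found in 5 (45.5%, against 47.7%), which were 1 peak each of Meis1, Meis2, Meis3, Pknox1 and Tgif1. In both windows the value of all peaks lay inside the interval. TGATTGAC was found in none of the 11, against 0.638% of central windows and 2.45% of whole peaks, and the interval for 0 of 11 reached 25.9%.

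TGATTNAT was found in no central window, against 2.37% of all, and in 3 whole peaks (27.3%, interval 9.75 to 56.6), against 10.6%. These were the peaks of Pbx3 and Meis3 and the nearer peak of Tgif1. The match was centred 208 bp from the midpoint for Pbx3 and 404 bp from it, in the UTR, for Meis3. For Tgif1 it was centred 99 bp from the midpoint and so ran past the central window. The 60 bp around the matches of Pbx3 and Tgif1 are shown on the plus strand of GRCm38, with the match in capitals, since these were the composite PBX sites of the set that lay outside UTRs.
Pbx3 peak309, chr2:33966306-33966365: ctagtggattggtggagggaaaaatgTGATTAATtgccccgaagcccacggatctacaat
Tgif1 peak3473, chr17:70748018-70748077: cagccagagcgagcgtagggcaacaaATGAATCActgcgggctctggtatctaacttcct

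The Pbx3 match was on the plus strand and the Tgif1 match on the minus strand, so that the latter reads ATGAATCA here. Among the other patterns, CATAAA was found in 3 central windows, of Meis2, Meis3 and Tgif1 (27.3%, interval 9.75 to 56.6), against 9.12% of all. That value is just below the interval, but over whole peaks the shares were close, at 36.4% and 35.8%. AGATAA was found in 1 central window (9.09% against 11.8%), that of the more distant Tgif1 peak, which held 3 matches in all. GGGCGG was found in 1 central window (9.09% against 8.69%) and in 4 whole peaks (36.4% against 23.4%), with 4 matches in the nearer Meis1 peak and 3 in the Pbx4 peak. AGGTGT was found in no central window, against 11.3% of all, and in 2 whole peaks (18.2% against 38.0%). With 11 peaks, each interval was wide, and a match is a description of letters and not a bound site.

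**Figure D4:**
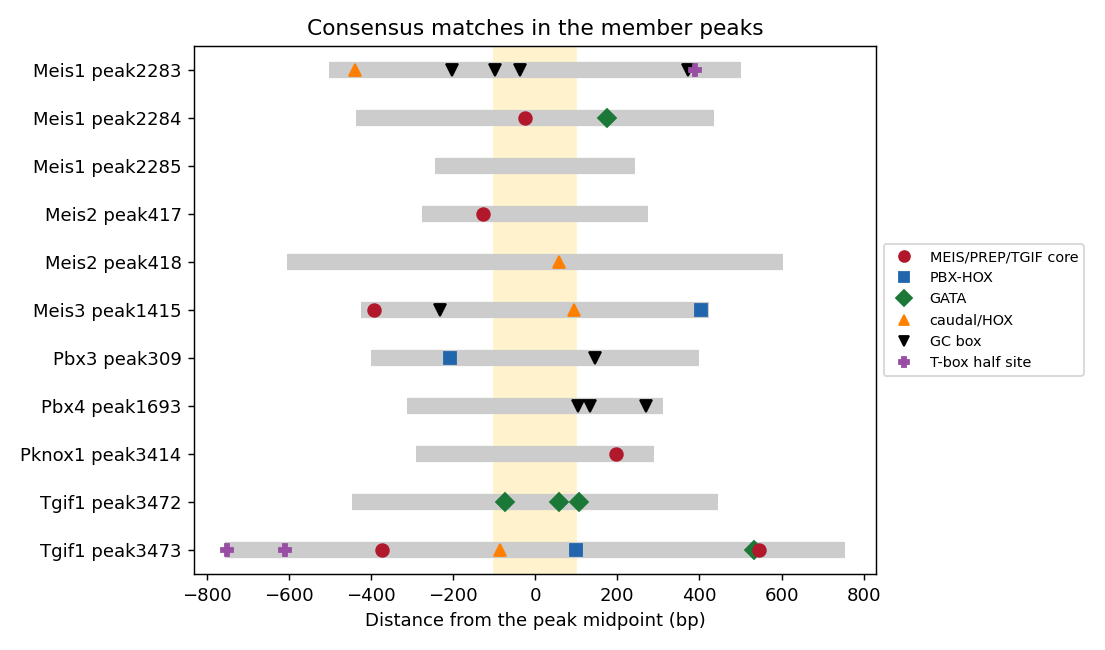
Consensus matches along the 11 peaks, by distance from the peak midpoint in bp; grey bars show each peak to scale, coloured marks the matches on either strand, and the shaded band the central 200 bp. The only TGACAG (MEIS/PREP/TGIF core) in the band is in peak2284 of Meis1, and peak2285 has no match.

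**Figure D5:**
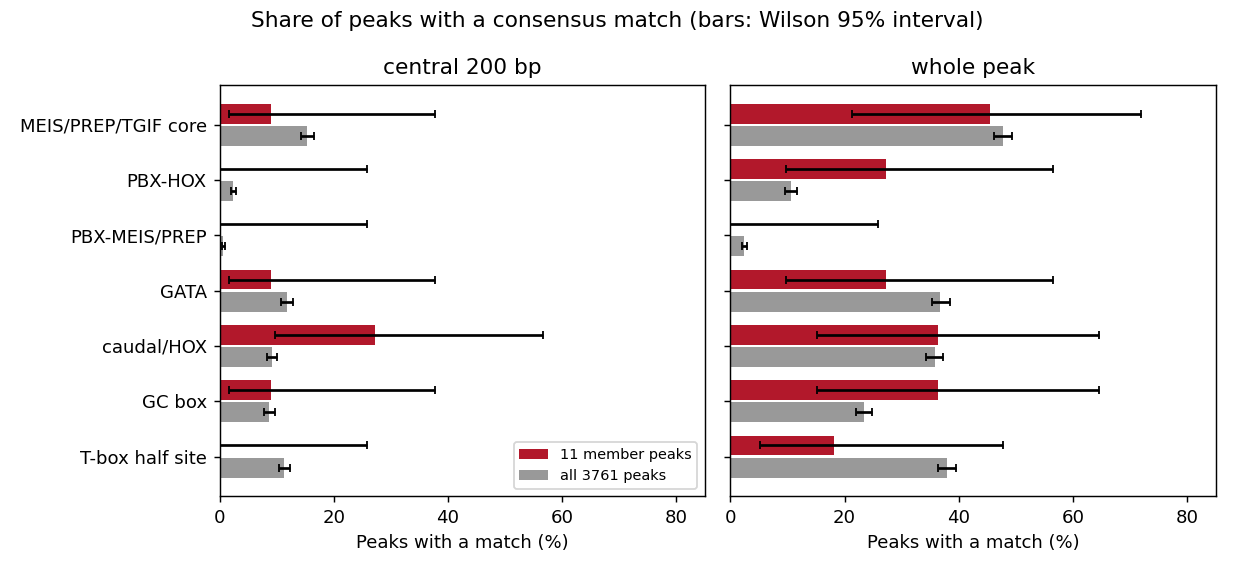
Share of the 11 peaks in TALE gene domains (red) and of all 3761 peaks (grey) with each consensus, in the central 200 bp (left) and over the whole peak (right), with Wilson 95% intervals as black lines. The intervals of the 11 peaks are wide, as for TGATTNAT (PBX-HOX) over whole peaks, at 27.3% with an interval from 9.75 to 56.6.

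Further TALE genes outside the MEIS, PBX and PREP families were looked up in the same way. Of 8 such genes, 5 had a peak, all of the Iroquois family: Irx1 had 3, Irx2 had 4, and Irx3, Irx4 and Irx5 had 2 each. Over all genes the share with a peak was 22.7%, and 40.7% for domains of 1 Mb or more, to which Irx1, Irx2 and Irx3 belong. Irx4, Irx5, Irx6 and Mkx belong to the class from 100 kb to 1 Mb, with 34.9%. Irx6, Mkx and Tgif2 had none, so that Tgif2 differed in this from Tgif1; its domain of 80526 bp was also shorter than the 466754 bp of Tgif1. Neighbouring Iroquois genes share peaks, and the 5 genes together had 7. No peak of these genes was in the basal domain of its gene, unlike the pair of Meis1.

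Genes of known partner factors were looked up last. Among anterior HOX genes, whose products pair with PBX proteins, Hoxb1 had 1 peak in a domain of 106962 bp. This peak lay 82333 bp downstream of the Hoxb1 TSS, and in the domain class of Hoxb1 34.9% of genes had a peak. Hoxa2, Hoxa3, Hoxb2 and Hoxb3 had none, in domains of 6000 to 36426 bp. The share of genes with a peak was 12.0% in the class of Hoxb2 and Hoxb3 and 4.58% in that of Hoxa2 and Hoxa3. Genes for cardiac transcription factors that work with TALE proteins were also examined. Of 6 such genes, 5 had peaks: Gata6 had 3, Gata4, Hand2 and Tbx5 had 2 each, and Isl1 had 1, whereas Nkx2-5 had none. The domain of Isl1 is in the class of 1 Mb or more, where 40.7% of genes had a peak, and those of the others are in the class from 100 kb to 1 Mb, with 34.9%. Meis1 thus had as many as Gata6, but in a domain of 1900473 bp against 901728 bp for Gata6. Unlike for Meis1, no peak of the cardiac genes was in the basal domain of its gene. A peak of Gata4 lay 3655 bp downstream of its TSS, however, closer than the second peak of Meis1 at 4170 bp upstream. It fell outside the basal domain because that domain reaches 5 kb upstream but only 1 kb downstream.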

How the data were processed

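Per the labels and the study's methods, the authors trimmed the CUT&RUN reads with fastp 0.20.1, aligned them to mm10 with BWA 0.7.17.4, collapsed duplicates sharing a molecular identifier and ran MACS2 2.1.2 on each sample against IgG. Peaks overlapping in at least 2 replicates were deposited by the authors as 1 list of positions (chromosome, start and end in bp). It holds no score or signal. The MACS2 threshold and how peaks of different replicates were joined are not given in the sources used here.

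Starts were read as counted from 0 and are printed counted from 1. Positions were set against GRCm38.p6 (RefSeq, for sequence and masked repeats) and GENCODE M21 (for genes), with 1 TSS per protein-coding gene chosen by transcript type, APPRIS level and spliced length. The nearest TSS and the closest TSS of a gene were taken over all of its transcripts. Intron numbers are those of the chosen transcript. Consensus letters were searched on both strands. The genes and lists were chosen with earlier results of these data known. Named were the 9 genes, those sharing a peak with them, the listed relatives and partners, and genes with as many peaks as Meis1. The result for 1 listed gene is not reported here. The genes with a pair of basal peaks were named after their values had been seen.

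Alternatives concerned the TSS, the domain rule, the peak list, the annotation and the motif window. The domain and motif functions recovered all 10205 simulated gene and peak pairs and all 200 planted motifs. No differences between groups were tested, because the list carries no values per library. Not analysed here were protein sequences, reads, and the libraries made with IgG or from input. The tools were Python 3.11.15, pandas 2.3.3, numpy 2.4.6, matplotlib 3.10.9 and scipy 1.17.1.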

Additional observations from a re-analysis of the deposited data

How the results depend on the processing

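The 11 peaks and the 7 genes with a peak were found again with the TSS of the longest transcript, an extension of 500 kb, any overlap in place of the midpoint, and peaks within 1 kb merged. The basal domain alone gave 3 peaks in 2 genes. The single nearest TSS, with 1 TSS per gene, gave 7 peaks in 5 genes, with none for Pbx3 and Pknox1. The peaks wider than the median gave 7 in 5 genes, with none for Pbx4 and Pknox1. Over whole peaks the share with TGACAG rose from 9.09 to 45.5% and that with TGATTNAT from 0 to 27.3%; both windows are printed above. From the closest TSS of any transcript the Pbx4 peak was at -12 bp in place of 121 bp. Shares by distance and annotation stayed within their intervals. No paired analysis was possible because 1 list covers the 3 anti-CHD7 replicates, and for the same reason no replicate could be left out. Without depth or peak heights, a domain without a peak shows only that none was called.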
